A study of Mus musculus with 94 samples.

Results

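The 10 genes described here are the Krüppel-like factors Klf2, Klf3, Klf4, Klf5, Klf6, Klf9, Klf10, Klf11, Klf14 and Klf15. They were taken by name from the 20411 gene rows of each of 2 count tables, one for epididymal (eWAT) and one for inguinal (iWAT) white adipose tissue of male mice. The list was chosen with earlier results of these data known, and each of its genes is described whatever its values. All 10 passed the filter on low counts in both depots, among 14323 genes tested in eWAT and 13899 in iWAT. The series followed the regression of diet-induced obesity, with poly(A) RNA of both depots sequenced from the same 47 C57BL/6JBomTac mice (94 libraries). Obese mice (n = 5, aged 28 weeks) were fed high-fat food from 10 weeks of age, for 18 weeks. The 3 regression groups (n = 6 each, aged 30, 34 and 40 weeks) were fed in the same way and then returned to low-fat food for 2, 6 or 12 weeks. Lean control mice of the same age (n = 6 at each of the 4 times) ate low-fat food throughout. Mice were housed 3 to an enclosure unless they fought, and the sources used here do not say which mice shared one.

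Krüppel-like factors are transcription factors that bind GC-rich and CACCC-type DNA through zinc fingers near the end of the protein, and several of them act at set steps of fat cell formation. Klf4, Klf5, Klf6, Klf9 and Klf15 promote it, while Klf2 and Klf3 hold it back, in part by acting on the genes of the adipogenic regulators Cebpa, Cebpb and Pparg. Klf9 and Klf15 are also induced by glucocorticoids, Klf10 and Klf11 were first described as genes induced early by TGF-β, and KLF14 is an imprinted gene tied in human to the expression of many genes in fat.

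Levels are given in CPM, the count of a gene as a share of the counts of its library, scaled between libraries by TMM, and differences as log2 fold changes with their standard errors (SE) and p-values adjusted over all genes tested in the depot. A gene is said to have risen or fallen where its adjusted p was under 0.05. Total counts were 1.32 to 25.9 Mreads (mega-reads) in eWAT libraries and 6.27 to 34.3 Mreads in iWAT libraries. The lowest was that of regressing eWAT replicate 2 at 2 weeks. In whole tissue, fewer cells of a type and less RNA per cell cannot be told apart. The 6 fat cell markers were detected in both depots, with a sum of 8495 to 26811 CPM over the 94 libraries. RNA of other tissues was present in some libraries: 5 genes of the epididymal duct and vas deferens summed to 0 to 5784 CPM in eWAT, 5 of skeletal muscle to 6.48 to 33234 CPM in iWAT, and 4 of B cells and lymph node to 3.22 to 753 CPM in iWAT.

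Promoters are shown for Klf15, which fell in both depots, and for Klf2, Klf4 and Klf6, which rose in both at 2 weeks. Klf9, which rose in both depots but at different times, is not shown. RefSeq promoters were given for 7 of the 10 genes, and the 250 bases before the start are printed on the strand of the gene, in GRCm38.p6 coordinates. In the first sequence (chr6:90462326-90462575, plus strand), capitals mark CACGTG, the E-box read by clock factors among others.
Klf15: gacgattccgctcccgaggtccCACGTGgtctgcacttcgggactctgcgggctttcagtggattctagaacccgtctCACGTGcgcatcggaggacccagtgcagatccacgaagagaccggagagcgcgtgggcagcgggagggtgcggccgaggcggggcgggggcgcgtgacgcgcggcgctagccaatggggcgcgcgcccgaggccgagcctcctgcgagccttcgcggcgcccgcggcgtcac
In the next 3 sequences (chr8:72318812-72319061, plus strand; chr4:55532476-55532725, minus strand; chr13:5861239-5861488, plus strand), capitals mark GGGCGG or its complement CCGCCC, the GC box.
Klf2: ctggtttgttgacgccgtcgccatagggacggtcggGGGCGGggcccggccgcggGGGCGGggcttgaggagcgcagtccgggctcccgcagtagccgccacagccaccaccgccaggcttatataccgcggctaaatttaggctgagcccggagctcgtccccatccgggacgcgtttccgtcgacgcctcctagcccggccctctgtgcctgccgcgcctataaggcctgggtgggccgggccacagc
Klf4: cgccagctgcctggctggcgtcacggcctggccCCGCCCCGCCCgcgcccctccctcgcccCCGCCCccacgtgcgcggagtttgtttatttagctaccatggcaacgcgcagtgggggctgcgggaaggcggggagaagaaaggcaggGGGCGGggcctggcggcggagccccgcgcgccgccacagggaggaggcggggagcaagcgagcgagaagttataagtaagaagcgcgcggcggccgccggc
Klf6: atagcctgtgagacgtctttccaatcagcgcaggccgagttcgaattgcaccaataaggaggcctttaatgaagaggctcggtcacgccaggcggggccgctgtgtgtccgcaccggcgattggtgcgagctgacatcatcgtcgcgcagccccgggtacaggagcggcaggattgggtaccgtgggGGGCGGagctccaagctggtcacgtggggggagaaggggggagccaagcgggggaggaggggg
The Klf15 window held 2 matches to CACGTG, at positions -228 and -172 from the start. That motif was in the windows of 4 of the 7 genes (Klf4, Klf6, Klf11 and Klf15) and in 6.02% of 32851 RefSeq promoter windows of the same length. GGGCGG was in 6 of the 7 windows, all but that of Klf9, and in 32.7% of the 32851. Klf4 had 4 matches to it, of which the first pair share a base, against 2 in Klf2 and 1 in Klf6. CACCC was found in 4 of the 7 windows (52% of all windows), TGACG, the core of a cAMP response element, in 4 (17.8%) and CCAAT in 4 (33.8%). AGAACA, a glucocorticoid receptor half-site, was in 0 of the 7 (16.1%). Both strands were searched for each of the 6 motifs, and a match in letters is not a bound site.

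The 10 genes moved in both directions and at different times. In obese mice 1 of the 10 was called in eWAT, beside 23.4% of all genes tested, and 4 in iWAT (2 higher, 2 lower), beside 30.2%. After 2 weeks of regression 5 were called in eWAT (4 higher, 1 lower), beside 35.7%, and 5 in iWAT, each of them higher, beside 18.8%. After 6 weeks 1 was called in eWAT (7.58% of all genes) and 1 in iWAT (1.04%), both higher. After 12 weeks 2 were called in eWAT (15.3%) and 1 in iWAT (0.0288%), again higher. In eWAT 2, 2, 0 and 0 of the 10 had groups without overlap, in order of time, beside 9.35%, 12.6%, 3.07% and 1.61% of all genes. In iWAT 1 of the 10 did at each time, beside 17%, 4.63%, 2.49% and 0.662%. In eWAT the median log2 fold change of the 10 genes was 0.011 in obese mice and 0.39 at 2 weeks, against -0.0034 and 0.017 over all genes. In iWAT it was 0.30 in obese mice and 0.34 at 2 weeks, against 0.020 and -0.0021 over all genes. Klf6 was called in 4 of the 8 comparisons.

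**Figure D1:**
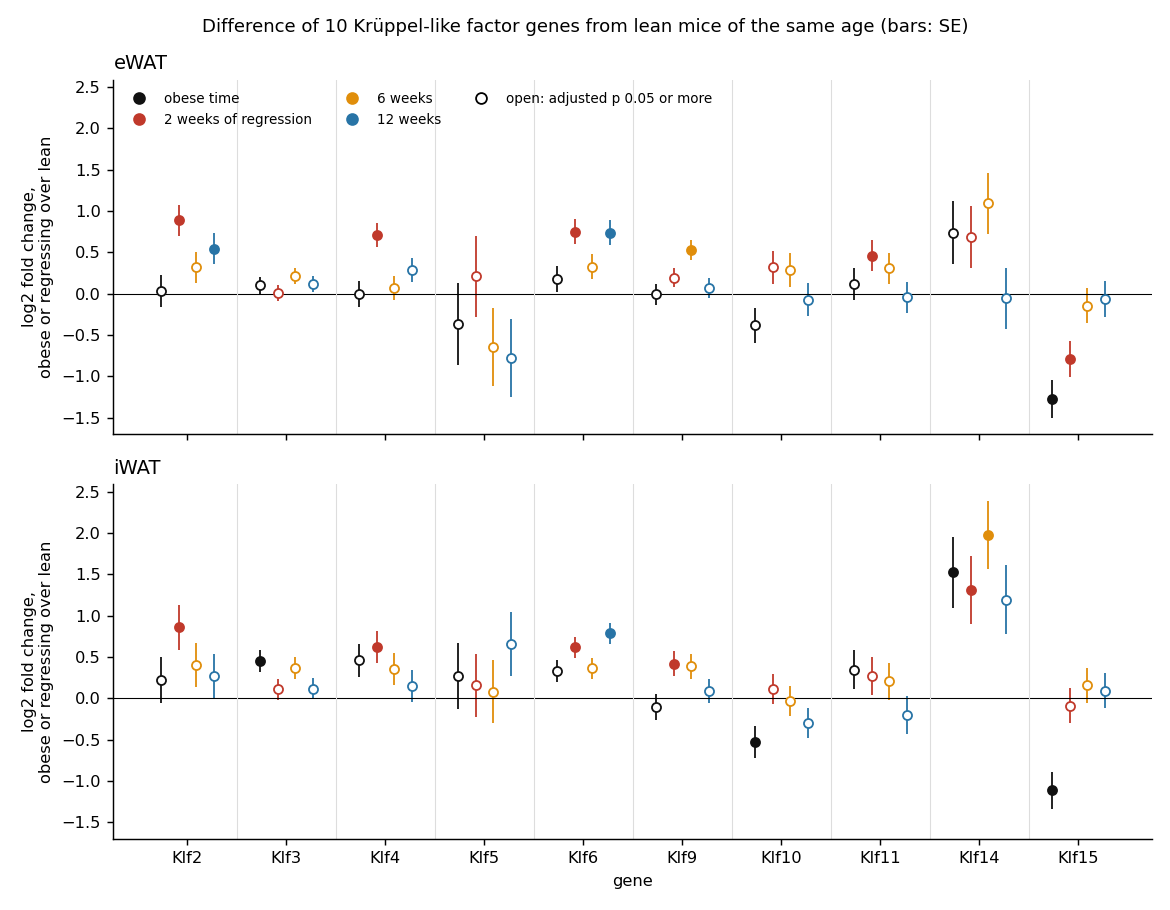
Log2 fold change (points; bars are the SE) of each of the 10 genes in obese or regressing mice over lean mice of the same age, in eWAT and iWAT at the 4 times; filled points have an adjusted p under 0.05. Klf15 is lowest in obese mice (-1.27 in eWAT and -1.12 in iWAT), and Klf14 is highest in iWAT at 6 weeks (1.98).

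The mice came in 2 series of mouse numbers, with at most 3 mice a group in each. Each of the 20 calls had the same direction within either series. The calls were made on the mice of both series, so this shared direction is partly set by their selection and is not a separate test. Some values within a series were small, as for Klf10 in obese iWAT (-0.093) and Klf14 in iWAT at 2 weeks (0.14). The log2 fold changes that follow are among the lower and then among the higher mouse numbers. In obese mice Klf15 was -1.05 and -1.45 in eWAT and -0.84 and -1.30 in iWAT, and in iWAT Klf3 was 0.29 and 0.67, Klf10 -0.84 and -0.093 and Klf14 1.80 and 1.35. At 2 weeks Klf2 was 0.59 and 1.12 in eWAT and 0.59 and 1.06 in iWAT, Klf4 0.62 and 0.80 in eWAT and 0.29 and 0.95 in iWAT, and Klf6 0.52 and 0.99 in eWAT and 0.55 and 0.69 in iWAT. Klf11 was then 0.60 and 0.28 in eWAT, and in iWAT Klf9 was 0.53 and 0.27 and Klf14 0.14 and 2.46. At 6 weeks Klf9 was 0.50 and 0.57 in eWAT. At 12 weeks Klf2 was 0.34 and 0.84 in eWAT, and Klf6 was 0.71 and 0.77 in eWAT and 0.83 and 0.75 in iWAT.

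Klf4 acts at the start of fat cell formation, where it induces Cebpb, and it was higher at 2 weeks in both depots. In eWAT Klf4 was 123 to 233 CPM in regressing mice (median 156 CPM) and 83.9 to 119 CPM in lean mice (median 100.4 CPM). Each of the 6 regressing mice was above each of the 6 lean mice; groups did not overlap for 12.6% of all genes. Klf4 rose there by 0.71 ± 0.15 (adjusted p = 0.000212). In iWAT it was 166 to 339 CPM in regressing mice (median 261 CPM) and 132 to 204 CPM in lean mice (median 171 CPM), with 1 of 6 regressing mice below the highest lean mouse. It rose by 0.62 ± 0.19 (adjusted p = 0.0202), and the call was lost without regressing replicate 1 (adjusted p = 0.057) or with runs of neighbouring mouse numbers as a random block (adjusted p = 0.0967). In obese mice Klf4 was 116 ± 17.3 CPM in eWAT against 116 ± 27.5 CPM in lean mice (SD). It was 195 ± 45.4 CPM in obese iWAT against 142 ± 35.5 CPM in lean iWAT (SD; 0.46 ± 0.20, adjusted p = 0.0775). In eWAT the difference from lean mice grew between the obese time and 2 weeks (0.72 ± 0.21, adjusted p = 0.0338, beside 5.82% of all genes called in that test).

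Klf6, which promotes fat cell formation and represses Dlk1, was higher at 2 and at 12 weeks in both depots. In eWAT at 2 weeks it was 298 to 476.8 CPM in regressing mice (median 352 CPM) and 177 to 257 CPM in lean mice (median 219.6 CPM). The groups did not overlap, as for 12.6% of all genes, and Klf6 rose by 0.75 ± 0.15 (adjusted p = 0.000164). In iWAT at 2 weeks it was 265 to 358 CPM in regressing mice (median 311 CPM) and 177 to 246 CPM in lean mice (median 194 CPM). Again the groups did not overlap, as for 4.63% of all genes, and the rise was 0.62 ± 0.13 (adjusted p = 0.000769). After 12 weeks Klf6 was 246 to 393.9 CPM in regressing eWAT (median 327 CPM) and 131 to 268 CPM in lean eWAT (median 186 CPM), a rise of 0.74 ± 0.15 (adjusted p = 0.00118) with some overlap. In iWAT it was then 217 to 376 CPM in regressing mice (median 248 CPM) and 116 to 179.6 CPM in lean mice (median 155 CPM). These groups did not overlap (0.662% of all genes), and Klf6 rose by 0.78 ± 0.13 (adjusted p = 0.00219). The mean of regressing iWAT was then 266 CPM, against 257 CPM in obese iWAT. Lean iWAT averaged 204 CPM at the obese time and 154 CPM at 12 weeks, a change that was not called (-0.41 ± 0.13, adjusted p = 0.166).

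Klf6 was 1 of 4 genes called in iWAT at 12 weeks, with Cebpb (-1.5 ± 0.25, adjusted p = 0.00219), Catsperg1 (1.12 ± 0.21, adjusted p = 0.0111) and Prickle1 (0.64 ± 0.12, adjusted p = 0.0145). Klf6 kept its call when any 1 of the 12 libraries was left out, with log2 fold changes of 0.66 to 0.84, and missed it when the 2 groups were fitted without the other groups (adjusted p = 0.21; 0 of 12796 genes called). At 6 weeks Klf6 was 289.6 ± 53.8 CPM in regressing eWAT and 231 ± 40.5 CPM in lean eWAT (SD; 0.33 ± 0.15, adjusted p = 0.163). It was 228 ± 34 CPM in regressing iWAT and 178 ± 19.8 CPM in lean iWAT (SD; 0.36 ± 0.13, adjusted p = 0.128). The change of the difference between 2 and 6 weeks was not called in either depot.

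Klf2, which represses Pparg and is prominent in endothelial cells, was higher at 2 weeks with Klf4 and Klf6. In eWAT it was 88.7 to 228 CPM in regressing mice (median 143 CPM) and 68.0 to 108 CPM in lean mice (median 84.5 CPM), and rose by 0.88 ± 0.18 (adjusted p = 0.000252). In iWAT it was 110.4 to 266 CPM in regressing mice (median 184 CPM) and 79.2 to 162 CPM in lean mice (median 98.4 CPM), and rose by 0.86 ± 0.27 (adjusted p = 0.0228). In each depot 5 of 6 regressing mice were above the highest lean mouse, and replicate 5 was the lowest regressing mouse in both. The highest lean mouse in iWAT, replicate 2, had 613 CPM of B cell and lymph node markers (group median 20.5 CPM), and without it the rise was 1.01 (adjusted p = 0.00959). The iWAT call held in 8 of 12 fits with 1 library left out (lost without regressing replicate 1 or 2 or lean replicate 3 or 5, adjusted p up to 0.0644), and was lost with runs of neighbouring mouse numbers as a random block (adjusted p = 0.0863). After 12 weeks Klf2 was 111 to 149 CPM in regressing eWAT (median 128 CPM) and 55.8 to 140.0 CPM in lean eWAT (median 79.7 CPM), a rise of 0.54 ± 0.18 (adjusted p = 0.0369). That call held in 5 of 12 such fits, lost without regressing replicate 4, 5 or 6 or lean replicate 1, 2, 3 or 5 (adjusted p up to 0.119), and was lost with the compared groups fitted alone (adjusted p = 0.0683). In eWAT the difference of Klf2 from lean mice grew between the obese time and 2 weeks (0.86 ± 0.27, adjusted p = 0.0445).

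**Figure D2:**
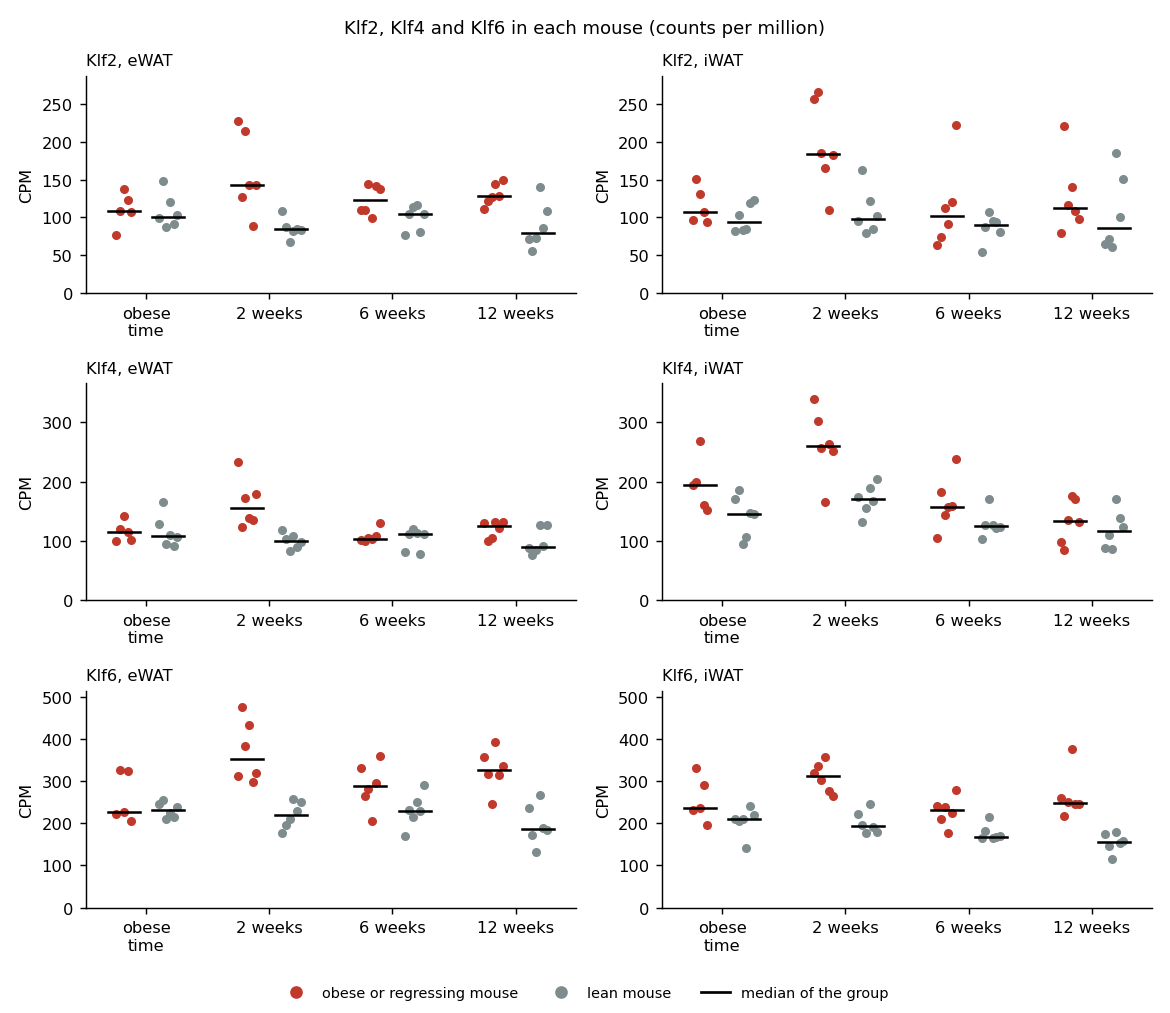
CPM of Klf2, Klf4 and Klf6 in every mouse of eWAT and iWAT at the 4 times, with obese or regressing mice (red) to the left of lean mice (grey) and a line at each group's median. At 2 weeks the medians in eWAT are 143 CPM of Klf2, 156 CPM of Klf4 and 352 CPM of Klf6 in regressing mice, against 84.5 CPM, 100.4 CPM and 219.6 CPM in lean mice.

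Markers of other cell types moved in the same comparisons. The 6 macrophage markers were each higher in eWAT at all 4 times, and their sum at 2 weeks was 897 to 2757 CPM in regressing mice against 437.7 to 641 CPM in lean mice. In iWAT 6 of the 6 were higher in obese mice, 1 at 2 weeks and 0 at 12 weeks, when their sum was 411.2 to 1458 CPM in regressing mice and 403.1 to 1261 CPM in lean mice. Of 8 endothelial markers 2 higher and 1 lower were called in eWAT at 2 weeks, with sums of 1068 to 1546 CPM in regressing mice and 1287 to 2102 CPM in lean mice, and 0 in iWAT. Of 5 progenitor and fibroblast markers 3 were higher in eWAT at 2 weeks and 0 in iWAT. Of all genes 23.4%, 35.7%, 7.58% and 15.3% were called in eWAT, in order of time, and 30.2%, 18.8%, 1.04% and 0.0288% in iWAT. No marker of these lists was at 0 in every library. The part of cell composition in the values of Klf2, Klf4 and Klf6 was not tested.

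Immediate early genes, among which Klf2, Klf4 and Klf6 are often counted, were higher at 2 weeks for 7 of the 14 listed in eWAT and 6 in iWAT, with median log2 fold changes of 0.53 and 0.80 over the list. Medians over all genes were 0.017 and -0.0021, and 35.7% and 18.8% of all genes were called. Fos, an immediate early transcription factor, was 37.7 to 68.5 CPM in regressing eWAT against 5.60 to 25.6 CPM in lean eWAT (2.11 ± 0.51, adjusted p = 0.00112). In iWAT Fos was 16.4 to 229 CPM in regressing mice against 5.57 to 20 CPM in lean mice (2.51 ± 0.57, adjusted p = 0.00185). In obese mice 4 higher and 1 lower were called in eWAT (23.4% of all genes) and 5 higher in iWAT (30.2%). At 6 weeks 1 higher was called in eWAT (7.58% of all genes) and 0 in iWAT (1.04%). At 12 weeks 1 higher and 1 lower were called in eWAT (15.3% of all genes), and 0 in iWAT (0.0288%), where the median of the list was -0.64 and Klf6 was higher. The part of tissue handling in these values was not tested.

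Klf3, which recruits CtBP corepressors and represses Cebpa, changed in 1 comparison. In iWAT the 5 obese mice had 60.1, 63.1, 67.5, 61.3 and 61.7 CPM, against 31.0 to 61.3 CPM in lean mice (median 44.8 CPM). Klf3 rose there by 0.45 ± 0.13 (adjusted p = 0.00888), with an SD of 2.86 CPM among obese mice and 11.3 CPM among lean mice. In obese iWAT Klf3 averaged 62.7 CPM. In lean iWAT it averaged 45.8 CPM at the obese time, 63.0 CPM at 2 weeks, 40.6 CPM at 6 weeks and 50.7 CPM at 12 weeks. In eWAT it was 58.8 ± 5.20 CPM in obese mice and 54.9 ± 9.94 CPM in lean mice (SD; 0.099 ± 0.10, adjusted p = 0.538). The difference between the responses of eWAT and iWAT was -0.39 ± 0.12 (95% interval -0.64 to -0.15, adjusted p = 0.116) and was not called. Klf3 overlaps C230096K16Rik on its own strand and Gm20033 on the other, and the sources used here do not give the strand used in counting, so reads of these genes cannot be told apart.

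Klf5, which acts after Cebpb and Cebpd and activates Pparg, had few reads. Its counts were 3 to 80 per library and its level 0.315 to 7.64 CPM, the highest in regressing eWAT replicate 2 at 2 weeks (1.32 Mreads). Its log2 fold changes ran from -0.78 to 0.65, with SE of 0.38 to 0.49, and it was called in 0 of the 8 comparisons.

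Klf15 drives genes of glucose uptake and amino acid breakdown, among them Slc2a4, the insulin-regulated glucose transporter, and it fell in obese mice of both depots. In eWAT the 5 obese mice had 81.5, 67.2, 75.8, 50.3 and 118 CPM, against 151 to 232 CPM in lean mice (median 189 CPM). In iWAT the same obese mice had 59.1, 97.8, 91.2, 75.8 and 119.5 CPM, against 147 to 238 CPM in lean mice (median 195 CPM). Every obese mouse was below every lean mouse in both depots, and obese replicate 5 was the highest obese mouse in each. Groups did not overlap for 9.35% of all genes in eWAT and 17% in iWAT. The log2 fold change of Klf15 was -1.27 ± 0.23 in eWAT (adjusted p = 0.000151) and -1.12 ± 0.22 in iWAT (adjusted p = 0.000234). Both calls held with any 1 library left out, at -1.45 to -1.13 in eWAT and -1.24 to -1.0 in iWAT.

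After 2 weeks of regression Klf15 was called in eWAT and not in iWAT. In eWAT it was 52.0 to 128 CPM in regressing mice (median 103 CPM) and 116 to 198 CPM in lean mice (median 179 CPM), and was still lower (-0.79 ± 0.22, adjusted p = 0.00399). In iWAT it was 86.2 to 184 CPM in regressing mice (median 127 CPM) and 69.6 to 183 CPM in lean mice (median 142 CPM), and was not called (-0.091 ± 0.21, adjusted p = 0.8). The lowest lean iWAT value was that of replicate 2, the library high in B cell and lymph node markers, without which the difference was -0.22 (adjusted p = 0.468). The lowest lean eWAT value was that of the same mouse, whose eWAT library had 2601 CPM of duct markers, and without it the difference was -0.88 (adjusted p = 0.00206). The values within the 2 series of mouse numbers lay apart. Among the lower numbers alone Klf15 was -1.24 (adjusted p = 0.0153) in eWAT and -0.66 (adjusted p = 0.0541) in iWAT. Among the higher numbers alone it was -0.40 (adjusted p = 0.231) in eWAT and 0.53 (adjusted p = 0.222) in iWAT, so that the iWAT value over all mice lies between values of opposite sign. The difference between the series was not tested. The difference between the depots' responses, fitted within mice, was -0.76 ± 0.17 (95% interval -1.08 to -0.44, adjusted p = 0.00386), where 8.42% of all genes were called. With mouse as a random block in limma voom it was -0.78 and missed the threshold (adjusted p = 0.0572). In the edgeR fit Klf15 at 2 weeks was the only call among the 10 genes in these tests of the depots' responses. The share of all genes called was 1.32% at the obese time, 0.597% at 6 weeks and 0.0542% at 12 weeks.

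At 6 weeks Klf15 was 160.3 ± 51.5 CPM in regressing eWAT and 177 ± 51.4 CPM in lean eWAT (SD, n = 6 each; -0.15 ± 0.21, adjusted p = 0.7). In iWAT it was 189.9 ± 40.3 CPM in regressing mice and 170.3 ± 41.2 CPM in lean mice (SD, n = 6 each; 0.16 ± 0.21, adjusted p = 0.759). The difference from lean mice in iWAT had changed since the obese time at 2 weeks (1.02 ± 0.31, adjusted p = 0.0459; 4% of all genes called), at 6 weeks (1.27 ± 0.31, adjusted p = 0.0233; 1.38%) and at 12 weeks (1.21 ± 0.31, adjusted p = 0.014; 4.85%). In eWAT it had changed at 12 weeks (1.21 ± 0.31, adjusted p = 0.0251; 2.32%). These changes share the obese and lean mice of the first time. The mean of lean iWAT was itself 192 CPM at the obese time, 134 CPM at 2 weeks, 170 CPM at 6 weeks and 160 CPM at 12 weeks. In obese iWAT the mean was 88.7 CPM, and in regressing iWAT at 2 weeks 126 CPM. The change at 2 weeks in iWAT thus combines a higher mean in regressing than in obese mice with a lower mean in lean mice. The difference between the lean mice of these times was not tested.

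Of 11 tested genes of a list tied to Klf15 or Klf14 in metabolism, 7 were lower in obese eWAT and 7 in obese iWAT, with medians of -0.85 and -0.51, against -0.0034 and 0.020 over all genes. At 2 weeks 1 higher and 7 lower were called in eWAT and 4 lower in iWAT. At 6 weeks 1 higher and 2 lower and at 12 weeks 1 higher and 2 lower were called in eWAT, and 0 in iWAT at either time. Calls over all genes, in order of time, were 23.4%, 35.7%, 7.58% and 15.3% in eWAT and 30.2%, 18.8%, 1.04% and 0.0288% in iWAT. Slc2a4 averaged 142 ± 63.8 CPM in obese eWAT and 323 ± 48.1 CPM in lean eWAT (SD; -1.19 ± 0.25, adjusted p = 0.000763). It averaged 170.4 ± 38.3 CPM in obese iWAT and 460.8 ± 88.7 CPM in lean iWAT (SD; -1.44 ± 0.23, adjusted p = 1.58e-05). At 2 weeks in iWAT, where Klf15 was not called, Slc2a4 was lower (-1.02 ± 0.22, adjusted p = 0.00101), and Bcat2, an aminotransferase of branched-chain amino acids, was not called (0.13 ± 0.16, adjusted p = 0.598). Acss2, which makes acetyl-CoA from acetate, averaged 45.6 ± 25.3 CPM in regressing eWAT and 645 ± 205 CPM in lean eWAT at 2 weeks (SD; -3.81 ± 0.50, adjusted p = 1.06e-06).

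Klf14, an intronless gene at chr6:30956023-30959078 on the minus strand (mm10), was higher in iWAT of obese mice and at 2 and 6 weeks of regression. The 5 obese iWAT samples had 17.3, 23.2, 7.26, 30.6 and 11.5 CPM, against 3.24 to 8.91 CPM in lean iWAT (median 7.02 CPM), a rise of 1.52 ± 0.43 (adjusted p = 0.00595). At 2 weeks it was 4.72 to 28.5 CPM in regressing iWAT (median 19.5 CPM) and 2.22 to 16.7 CPM in lean iWAT (median 5.72 CPM), a rise of 1.3 ± 0.41 (adjusted p = 0.0232). That call was lost without regressing replicate 1 or lean replicate 2, 3 or 6 (adjusted p up to 0.0693), with the runs of mouse numbers as a random block (adjusted p = 0.0833) and with the compared groups fitted alone (adjusted p = 0.118). At 6 weeks it was 16.6 to 51.0 CPM in regressing iWAT (median 29.0 CPM) and 4.27 to 14.1 CPM in lean iWAT (median 7.43 CPM), a rise of 1.98 ± 0.42 (adjusted p = 0.00854) without overlap (2.49% of all genes). At 12 weeks it was 7.74 to 23.9 CPM in regressing iWAT and 3.93 to 8.42 CPM in lean iWAT, with 5 of 6 regressing mice above the highest lean mouse, and missed the threshold (1.19 ± 0.42, adjusted p = 0.187).

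In eWAT Klf14 was called at none of the 4 times. The 5 obese eWAT samples had 40.3, 34.3, 33.1, 29.1 and 31.4 CPM, each above the 14.8 to 27.5 CPM of lean eWAT (0.74 ± 0.38, adjusted p = 0.164). Groups did not overlap for 9.35% of all genes in that comparison. At 6 weeks it was 27.8 to 72.7 CPM in regressing eWAT (median 40.6 CPM) and 7.05 to 33.6 CPM in lean eWAT (median 20.8 CPM; 1.09 ± 0.37, adjusted p = 0.0598). At 12 weeks the means were 19.3 ± 8.09 CPM in regressing mice and 20 ± 7.48 CPM in lean mice (SD). The response of eWAT minus that of iWAT was -0.70 ± 0.40 (adjusted p = 0.541) at the obese time, -1.0 ± 0.40 (adjusted p = 0.107) at 2 weeks, -0.85 ± 0.38 (adjusted p = 0.284) at 6 weeks and -1.18 ± 0.39 (adjusted p = 0.111) at 12 weeks, called at none of them.

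Within the 2-week regression group, Klf14 values lay apart by series of mouse numbers in eWAT, and the difference between the series was not tested. In eWAT replicates 1 to 3 (the higher mouse numbers) had 65.2, 54.1 and 50.1 CPM, and replicates 4 to 6 (the lower mouse numbers) had 7.93, 7.03 and 18.3 CPM. In iWAT replicates 1 to 3 had 28.5, 19.3 and 24.5 CPM, and replicates 4 to 6 had 7.44, 4.72 and 19.7 CPM. Within the series of replicates 1 to 3, the log2 fold change at 2 weeks was 1.57 in eWAT (adjusted p = 0.0109) and 2.46 in iWAT (adjusted p = 0.00764). Within the series of replicates 4 to 6 it was -1.0 in eWAT (adjusted p = 0.102) and 0.14 in iWAT (adjusted p = 0.897). At 6 weeks the same series gave 2.26 and 1.79 in iWAT, neither of them called, in fits that called 3 and 5 of all genes. The sources used here do not say what the series of mouse numbers stands for.

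**Figure D3:**
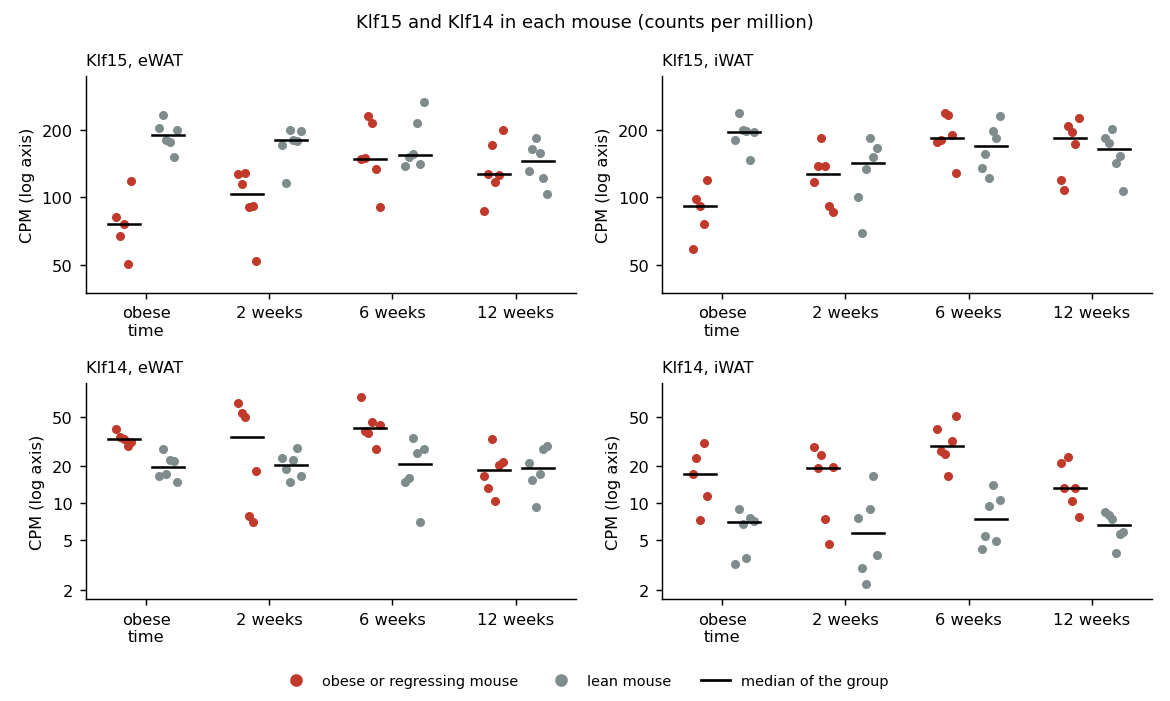
CPM (log axis) of Klf15 and Klf14 in every mouse of eWAT and iWAT at the 4 times, with obese or regressing mice (red) to the left of lean mice (grey) and a line at each group's median. Klf15 of obese mice is below each lean mouse of that time in both depots; Klf14 of regressing iWAT at 6 weeks (16.6 to 51.0 CPM) is above each lean mouse (4.27 to 14.1 CPM).

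Klf9, which activates Pparg and responds to glucocorticoids, rose in eWAT at 6 weeks and in iWAT at 2 weeks. At 6 weeks it was 238.6 to 390.02 CPM in regressing eWAT (median 281 CPM) and 180.0 to 240.0 CPM in lean eWAT (median 190.1 CPM; 0.53 ± 0.12, adjusted p = 0.00799). This call held in 12 of 12 fits with 1 library left out and was lost with runs of neighbouring mouse numbers as a random block (0.52, adjusted p = 0.0653), a fit in which 23 of 14323 genes were called, against 1086 here. At 2 weeks it was 213 to 398.6 CPM in regressing iWAT (median 291 CPM) and 174 to 282 CPM in lean iWAT (median 219.9 CPM; 0.42 ± 0.15, adjusted p = 0.045). That call held in 4 of 12 such fits, lost without regressing replicate 4, 5 or 6 or lean replicate 1, 2, 3, 4 or 6 (adjusted p up to 0.161), and was lost with that random block (adjusted p = 0.0925), with DESeq2 size factors (adjusted p = 0.0502), without the filter on low counts (adjusted p = 0.0509) and with the compared groups fitted alone (adjusted p = 0.113). In eWAT at 2 weeks Klf9 was not called (0.19 ± 0.12, adjusted p = 0.217). In iWAT at 6 weeks it was not called either (0.39 ± 0.15, adjusted p = 0.16). Regressing means were then 298 CPM in eWAT and 290 CPM in iWAT, against 261 and 222 CPM in lean mice. The change of the Klf9 difference between 2 and 6 weeks was not called in either depot. Nor was the difference between the depots' responses at 2 or 6 weeks.

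The highest Klf9 of each of these regression groups came from the same mouse in both depots. Regressing replicate 5 at 2 weeks had 406.4 CPM in eWAT and 398.6 CPM in iWAT, and was also highest in the glucocorticoid target Fkbp5 (259.6 and 336 CPM, with group medians of 101 and 104 CPM). Lean medians of Fkbp5 were then 128 CPM in eWAT, above that of regressing mice, and 80.9 CPM in iWAT. In replicate 5 the level of the clock gene Per2 was below the group median in both depots (68.7 and 61.4 CPM, with medians of 91.3 and 72.2 CPM). Regressing replicate 6 at 6 weeks had 390.02 and 375 CPM of Klf9, and was highest in Fkbp5 (109 and 82.8 CPM) and in Per2 (94.4 and 95.5 CPM). Of 12 listed glucocorticoid targets, 5 were higher at 2 weeks in eWAT and 9 in iWAT (medians 0.52 and 0.90). Medians over all genes were then 0.017 and -0.0021, with 35.7% and 18.8% of all genes called. In obese mice, where Klf15 was lower, 3 higher and 1 lower were called in eWAT and 3 higher and 2 lower in iWAT. At 6 weeks 1 higher was called in eWAT and 0 in iWAT, and at 12 weeks 0 in either. The shares of all genes at these times were 23.4%, 7.58% and 15.3% in eWAT and 30.2%, 1.04% and 0.0288% in iWAT. Fkbp5, Per2 and the mice named here were chosen after their values were seen, and the part of stress or time of day was not tested.

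Klf10 and Klf11, related repressors induced by TGF-β, were each called once. In iWAT the 5 obese mice had 34.8, 34.7, 41.1, 37.5 and 33.0 CPM of Klf10, against 39.2, 46.9, 32.7, 42.3, 78.6 and 72.4 CPM in the 6 lean mice (-0.53 ± 0.19, adjusted p = 0.0299). The 2 highest lean values were those of replicates 5 and 6, and the call was lost without either of them or without obese replicate 1, 2 or 5 (adjusted p up to 0.125), with the runs of mouse numbers as a random block (adjusted p = 0.0862) and with the compared groups fitted alone (adjusted p = 0.0759). The same lean mice were highest in eWAT, where obese mice had 29.2 to 42.9 CPM and the lean mice 37.9, 39.5, 21.6, 30.8, 78.1 and 79.7 CPM (-0.38 ± 0.21, adjusted p = 0.193). They had the lowest Klf11 of the lean mice in both depots. Their Per2 was 96.4 and 107 CPM in eWAT and 85.8 and 87.1 CPM in iWAT, against 16.8 to 48.1 CPM in the other 4 lean mice over both depots. Without the pair, in a fit added after their values were seen, Klf10 was -0.14 in iWAT (adjusted p = 0.586) and 0.18 in eWAT (adjusted p = 0.509), while Klf15 was -1.18 in iWAT and -1.33 in eWAT and stayed called in both.

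Klf11, which has been linked to browning of human fat cells, was higher in eWAT at 2 weeks. It was 37.4 to 66.1 CPM in regressing mice (median 53.0 CPM) and 29.4 to 46.7 CPM in lean mice (median 38.4 CPM; 0.46 ± 0.19, adjusted p = 0.0492). The call held in 5 of 12 fits with 1 library left out, lost without regressing replicate 4, 5 or 6 or lean replicate 1, 2, 4 or 6 (adjusted p up to 0.107), and with the replicate number as a block (adjusted p = 0.0571). It was also lost in DESeq2 (adjusted p = 0.0512), with its size factors (adjusted p = 0.0532), with the mouse series as a term (adjusted p = 0.0519), with the runs as a random block (adjusted p = 0.0767) and with other tissues as terms (adjusted p = 0.051). In iWAT at 2 weeks Klf11 was 24.7 to 65.4 CPM in regressing mice and 21.4 to 43.1 CPM in lean mice (0.27 ± 0.23, adjusted p = 0.437).

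**Figure D4:**
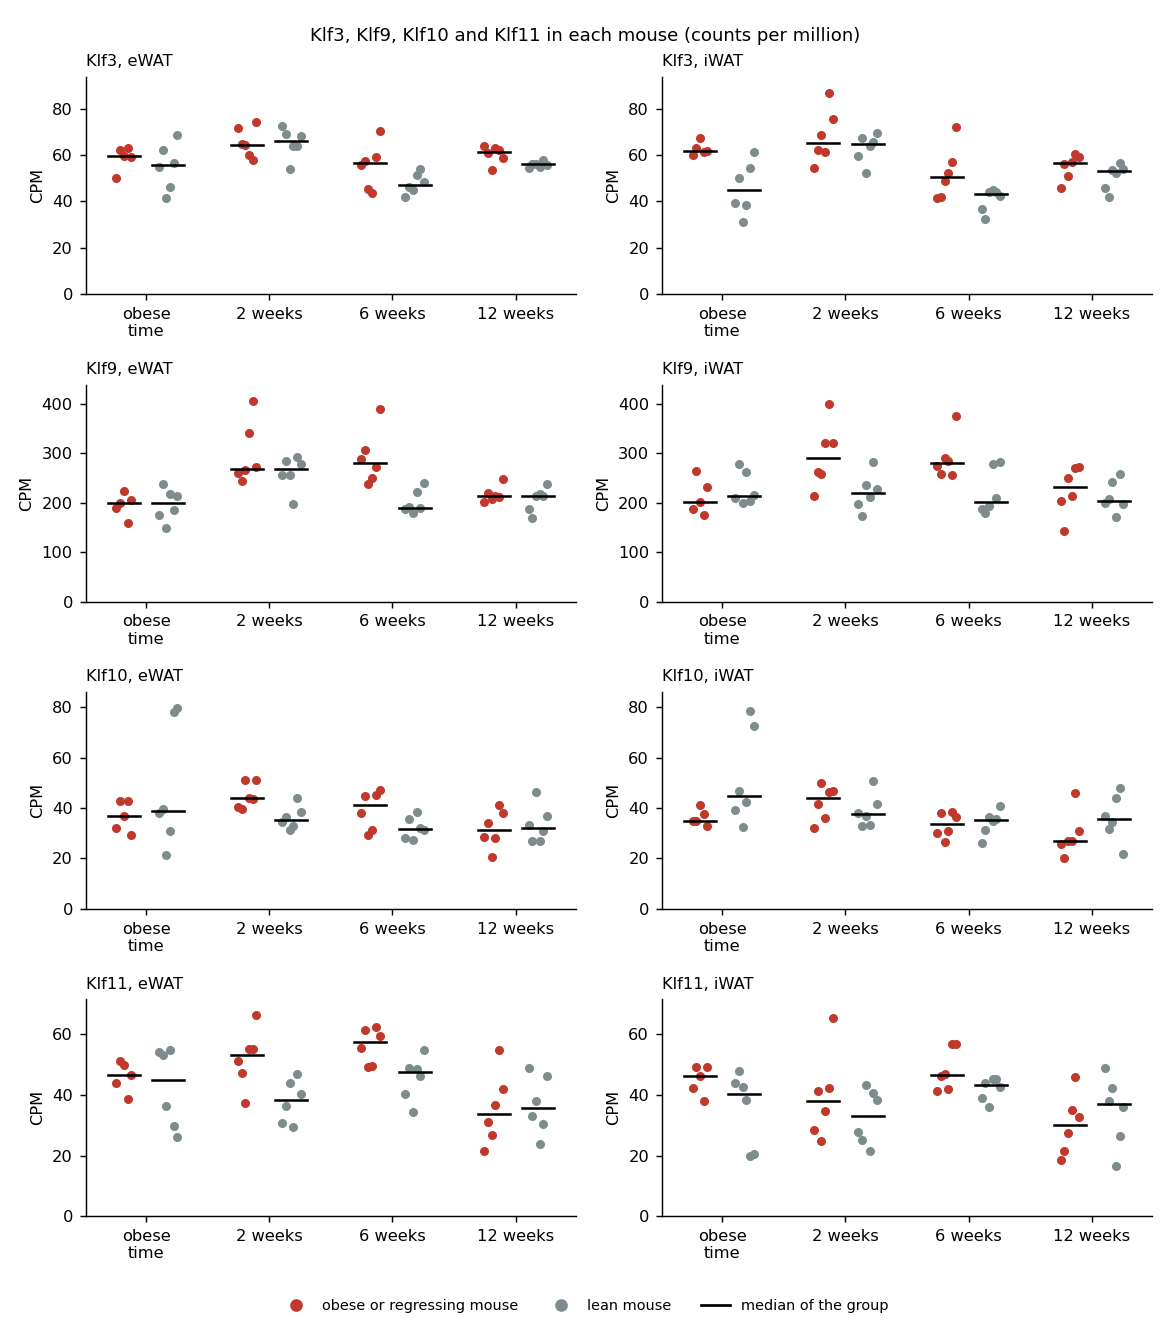
CPM of Klf3, Klf9, Klf10 and Klf11 in every mouse of eWAT and iWAT at the 4 times, with obese or regressing mice (red) to the left of lean mice (grey) and a line at each group's median. Klf9 in eWAT at 6 weeks has medians of 281 CPM in regressing mice and 190.1 CPM in lean mice; the 2 lean mice with the highest Klf10 at the obese time are the same animals in both depots.

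In lean mice the depots differed most in Klf14 and Klf4. Over 24 lean mice Klf14 was 19.8 ± 6.42 CPM in eWAT and 7.14 ± 3.50 CPM in iWAT (SD), higher in eWAT in 24 of 24 mice (1.52 ± 0.14, adjusted p = 3.09e-12). Klf4 was 102 ± 20.2 CPM in eWAT and 144 ± 35.8 CPM in iWAT (SD), higher in eWAT in 0 of 24 mice (-0.48 ± 0.060, adjusted p = 3.5e-09). Of the 10 genes 7 were called in this comparison, beside 59.3% of all genes tested. The other 5 differed by less, with log2 differences of 0.18 for Klf6, 0.11 for Klf11, 0.10 for Klf3, -0.19 for Klf10 and -0.11 for Klf9. With mouse as a random block in limma voom 4 were called (Klf4, Klf6, Klf10 and Klf14), and Klf3, Klf9 and Klf11 were lost, which here had adjusted p of 0.0335, 0.0416 and 0.0428. Klf2, Klf5 and Klf15 were not called, and for Klf15 the difference was 0.0010 ± 0.058. Between lean mice aged 40 and 28 weeks 0 of the 10 were called by edgeR in either depot, beside 0.105% of all genes in eWAT and 0.496% in iWAT. At an unadjusted p under 0.05 there were 3: Klf10 in eWAT (-0.52 ± 0.20), Klf10 in iWAT (-0.53 ± 0.18), Klf6 in iWAT (-0.41 ± 0.13).

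Set per kilobase of exon, Klf15 had the highest mean and Klf5 the lowest in lean mice of both depots (59.6 and 0.464 CPM per kb in eWAT, 60.1 and 0.360 CPM per kb in iWAT). In eWAT the order of levels was Klf15, Klf2, Klf6, Klf9, Klf4 (33.4), Klf11 (9.11), Klf10, Klf14, Klf3 and Klf5. Neighbours in that order differed by more than the larger SD of the pair between Klf9 and Klf4, Klf4 and Klf11, and Klf3 and Klf5, and elsewhere they did not. In iWAT the order was Klf15, Klf2, Klf4, Klf9, Klf6 (43.1), Klf10 (9.90), Klf11, Klf3, Klf14 and Klf5. There the gaps past the larger SD lay between Klf6 and Klf10, Klf11 and Klf3, Klf3 and Klf14, and Klf14 and Klf5.

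**Figure D5:**
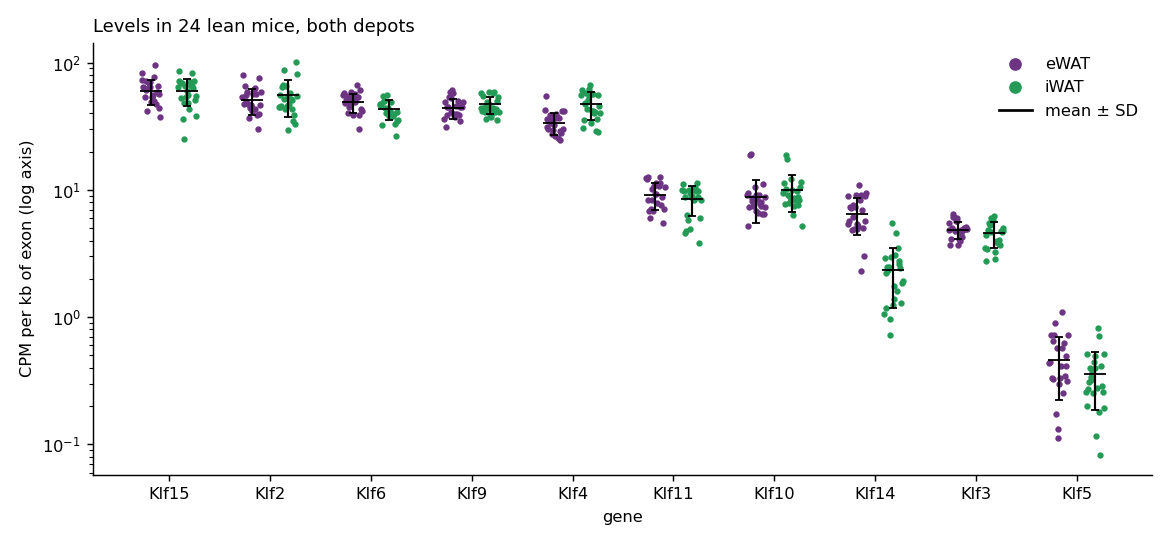
Level per kilobase of exon (CPM per kb, log axis) of the 10 genes in each of the 24 lean mice (points), with mean ± SD and with eWAT (purple) to the left of iWAT (green). Klf14 is higher in eWAT (6.49 against 2.34 CPM per kb in iWAT) and Klf4 lower (33.4 against 47.2 CPM per kb).

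Of 16 other Klf and Sp genes, 11 were tested. Klf8 was higher in obese mice of both depots (1.23 ± 0.23, adjusted p = 0.000197 in eWAT; 0.98 ± 0.27, adjusted p = 0.00549 in iWAT), and Klf16 was lower in both (-0.47 ± 0.16, adjusted p = 0.0233 in eWAT; -0.79 ± 0.13, adjusted p = 2.53e-05 in iWAT). In eWAT, 1 higher and 1 lower in obese mice, 2 higher and 2 lower at 2 weeks, 0 at 6 weeks and 2 higher at 12 weeks were called. In iWAT, 2 higher and 1 lower in obese mice, 0 at 2 weeks, 0 at 6 weeks and 0 at 12 weeks were called. Shares of all genes called, in order of time, were 23.4%, 35.7%, 7.58% and 15.3% in eWAT and 30.2%, 18.8%, 1.04% and 0.0288% in iWAT.

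Among 16 partners of the family in fat cell formation and corepressors, Pparg, the main regulator of fat cell genes, was lower in obese eWAT (-0.80 ± 0.20, adjusted p = 0.00369) and obese iWAT (-0.91 ± 0.21, adjusted p = 0.00109). Cebpd, an early adipogenic factor, was higher at 2 weeks, when Klf4 and Klf2 were higher, in eWAT (1.15 ± 0.20, adjusted p = 3.86e-05) and iWAT (1.31 ± 0.28, adjusted p = 0.000959). At 2 weeks Pparg was lower in eWAT (-0.84 ± 0.19, adjusted p = 0.000719) and not called in iWAT (-0.27 ± 0.20, adjusted p = 0.346). In eWAT, 2 higher and 3 lower in obese mice, 3 higher and 2 lower at 2 weeks, 2 higher at 6 weeks and 1 higher at 12 weeks were called. In iWAT, 1 higher and 3 lower in obese mice, 3 higher at 2 weeks, 0 at 6 weeks and 1 lower at 12 weeks were called. Shares of all genes called, in order of time, were 23.4%, 35.7%, 7.58% and 15.3% in eWAT and 30.2%, 18.8%, 1.04% and 0.0288% in iWAT.

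Of 17 clock genes, 1 higher and 7 lower were called in obese eWAT and 1 higher and 8 lower in obese iWAT, the comparisons in which Klf15 was lowest. Nr1d1, a clock repressor, was lower in obese eWAT (-0.97 ± 0.17, adjusted p = 8.63e-05), and Bhlhe40, another, was lower in obese iWAT (-2.64 ± 0.40, adjusted p = 5.26e-06). At 2 weeks 1 higher and 4 lower were called in eWAT and 2 higher in iWAT, at 6 weeks 1 lower in eWAT and 0 in iWAT, and at 12 weeks 1 lower in eWAT and 0 in iWAT. Calls over all genes, in order of time, were 23.4%, 35.7%, 7.58% and 15.3% in eWAT and 30.2%, 18.8%, 1.04% and 0.0288% in iWAT. Of the 6 fat cell markers 1 lower was called in obese eWAT and 3 lower in obese iWAT. The part of fat cell content and of sampling time in the values of Klf15 was not tested.

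The genes whose 8 differences from lean mice were most like those of a member were found among 10640 genes, by the root mean square difference in log2 fold change over the 8 comparisons. For Klf15 they were Pard6g (0.12) and Ankef1 (0.15), for Klf2 Ifit1 (0.14) and Slco2b1 (0.15), for Klf4 Selm (0.13) and Pdlim1 (0.14) and for Klf6 Plxdc2 (0.18) and Prkar1b (0.18). For Klf3 they were Sh3d19 (0.066) and B3galt4 (0.073), for Klf9 B4galt1 (0.096) and Rnf19b (0.10), for Klf10 Vps11 (0.14) and Tob2 (0.15) and for Klf11 Nsmf (0.080) and Rnf149 (0.11). For Klf14 the nearest were Bcat1 (0.49) and Fgf13 (0.50), farther away than the nearest of any other member shown.

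In the authors' deposited table of comparisons, 21 of the 80 differences of the 10 genes had an adjusted p under 0.05, against 20 here, and 19 were called in both with the same direction. The authors' deposited table calls Klf14 in eWAT at 6 weeks (log2 fold change 1.09, adjusted p = 0.0386) and Klf6 in obese iWAT (log2 fold change 0.34, adjusted p = 0.0494), which missed the threshold here. The authors' deposited table gives Klf11 in eWAT at 2 weeks an adjusted p of 0.0512, and it was called here.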

How the data were processed

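RNA counts per gene, as deposited by the authors in 1 table per depot, were read for 47 mice. The submitters' processing notes name STAR 2.4.1c, R 4.2.2, DESeq2 1.38.3 and mm10; those notes as given here do not name the counting program, annotation or strand. The authors also deposited log2 fold changes and adjusted p-values of their own comparisons, which are quoted only where named.

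The deposited counts were fitted per depot over all 8 groups with edgeR 4.0.16 (quasi-likelihood F-test, TMM, filterByExpr) in R 4.3.3, with Benjamini-Hochberg adjustment over all genes tested and a threshold of 0.05. Every adjusted p without another name comes from this test. The SE were derived from it, as the absolute log2 fold change divided by the square root of the F statistic. The 95% intervals are 1.96 SE to either side. Differences between times are contrasts of that fit, and differences between depots come from a joint fit of 94 libraries with the mouse as a block (14749 genes tested). Replicates are separate mice, and the same replicate number in both depots is the same mouse. No pair of replicates agreed within sampling noise (chi-square per degree of freedom at least 3.63).

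The 10 members, the gene lists and the named genes (every member, genes of the lists, and the 2 genes most like each member with a mean of at least 5 CPM) were chosen with earlier results of these data known. Exon lengths and positions are from GENCODE and promoter sequences from RefSeq (GRCm38.p6). Alternatives were DESeq2 1.42.0, its size factors, omitting the filter, a replicate block, the mouse series as a term or alone, runs of neighbouring mouse numbers as a random block (limma 3.58.1 voom), the compared groups alone, other tissues as terms, and each library left out. Counts carry no molecular identifiers, so depth bounds counting error only.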

Additional observations from a re-analysis of the deposited data

Results flagged for a closer look

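In 8 of 160 groups of 5 or 6 mice, 1 mouse lay apart from the others by Dixon's test at the 95% level, and chance gives about 5% of groups. In eWAT these were Klf3 in eWAT of obese mice, replicate 1, with 50 CPM as the lowest (next 59.2 CPM), Klf4 in eWAT of mice at 6 weeks of regression, replicate 6, with 130 CPM as the highest (next 109 CPM), Klf9 in eWAT of lean mice of the 2-week time, replicate 4, with 197 CPM as the lowest (next 256 CPM) and Klf15 in eWAT of lean mice of the 2-week time, replicate 2, with 116 CPM as the lowest (next 171 CPM). In iWAT they were Klf6 in iWAT of mice at 12 weeks of regression, replicate 4, with 376 CPM as the highest (next 260 CPM), Klf6 in iWAT of lean mice of the obese time, replicate 4, with 142 CPM as the lowest (next 205 CPM), Klf6 in iWAT of lean mice of the 6-week time, replicate 3, with 216 CPM as the highest (next 183 CPM) and Klf9 in iWAT of mice at 6 weeks of regression, replicate 6, with 375 CPM as the highest (next 290 CPM). Some of these libraries also held the most RNA of another tissue in their group. The lean eWAT library with the low Klf15 had 2601 CPM (group median 0.208 CPM) of epididymal duct and vas deferens markers and 1467 CPM (group median 548 CPM) of smooth muscle markers. Of skeletal muscle markers, the regressing iWAT library with the high Klf9 had 7799.6 CPM (group median 253 CPM), and the lean iWAT library with the low Klf6 had 5012 CPM (group median 705 CPM). The iWAT libraries with a high Klf6 and the eWAT library with the high Klf4 were highest of their groups in both macrophage and progenitor markers. For Klf6 at 12 weeks of regression these sums were 1458 and 2077 CPM (group medians 783 and 1468 CPM). For Klf6 in lean mice they were 1178 and 2308 CPM (group medians 581 and 1384 CPM). The other flagged libraries were not highest in both. The part of other tissues and of cell content in these values was not tested.

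The responses of eWAT and iWAT differed for Klf15 at 2 weeks (-0.76 on the log2 scale, eWAT minus iWAT). The difference from lean mice changed between the obese time and 2 weeks in eWAT for Klf2 (0.857) and Klf4 (0.719). For Klf15 it changed by 1.21 in eWAT at 12 weeks, and in iWAT by 1.02 at 2 weeks, 1.27 at 6 weeks and 1.21 at 12 weeks, each against the obese time.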

How the results depend on the processing

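The number of members called in order of time (obese, 2, 6 and 12 weeks) was 1, 5, 1 and 2 in eWAT and 4, 5, 1 and 1 in iWAT, beside 23.4%, 35.7%, 7.58% and 15.3% and 30.2%, 18.8%, 1.04% and 0.0288% of all genes. In DESeq2 it was 1, 4, 2 and 2 in eWAT and 5, 5, 1 and 1 in iWAT, beside 23.7%, 33%, 9.51% and 17.4% and 28.1%, 18.6%, 3.13% and 1.01% of all genes. With the lower mouse numbers alone it was 0, 3, 0 and 0 in eWAT and 1, 0, 0 and 0 in iWAT, beside 10.4%, 25.2%, 0% and 0.00686% and 9.57%, 15%, 0.036% and 0.0216% of all genes. With the higher mouse numbers alone it was 1, 4, 0 and 1 in eWAT and 3, 3, 0 and 0 in iWAT, beside 4.28%, 14.9%, 0% and 4.74% and 18.7%, 5.06%, 0.0217% and 0.0506% of all genes. With runs of neighbouring mouse numbers as a random block it was 1, 4, 0 and 2 in eWAT and 3, 1, 1 and 1 in iWAT, beside 18.3%, 30%, 0.161% and 18.1% and 23.3%, 8.77%, 0.223% and 0.00719% of all genes. With the compared groups fitted alone it was 2, 6, 1 and 1 in eWAT and 3, 3, 1 and 0 in iWAT, beside 17.2%, 28.8%, 7.69% and 12% and 33.2%, 10.4%, 2.88% and 0% of all genes. These fits tested 8936 to 16135 genes. With 1 library left out it was 1 to 2 in obese eWAT, 4 to 5 in eWAT at 2 weeks, 1 to 2 in eWAT at 6 weeks, 1 to 2 in eWAT at 12 weeks, 3 to 5 in obese iWAT, 2 to 5 in iWAT at 2 weeks, 1 in iWAT at 6 weeks and 1 in iWAT at 12 weeks. With the replicate block it was 1, 4, 1 and 2 in eWAT and 4, 5, 1 and 1 in iWAT, with Klf11 in eWAT at 2 weeks lost. Correlations of same-numbered mice ran from -0.60 to 0.63, and their own number was best in at most 2 of the pairs of a comparison. With 5 or 6 pairs in each comparison, these values cannot settle whether replicate numbers pair the mice. Replicate numbers also follow the 2 series of mouse numbers. With mouse as a random block in limma voom, 0 members were called for the depots' responses at 2 weeks, and 4 between depots of lean mice. The cause of these moves was not tested. The fit without lean mice 5 and 6 was chosen after seeing the data. No called difference of a member changed sign under any alternative run. Those runs used the same mice or part of them, so a kept sign is not a separate test. Of the 80 member comparisons 26, none of them called, took the other sign under some alternative, as listed in log2 fold changes. With the lower mouse numbers alone these were Klf4 in obese eWAT (0.077), Klf3 in eWAT at 2 weeks (-0.024), Klf14 in eWAT at 2 weeks (-1.0), Klf10 in eWAT at 12 weeks (0.19), Klf11 in eWAT at 12 weeks (0.41), Klf15 in eWAT at 12 weeks (0.20), Klf2 in obese iWAT (-0.087), Klf5 in iWAT at 6 weeks (-0.60), Klf15 in iWAT at 6 weeks (-0.12), Klf2 in iWAT at 12 weeks (-0.33) and Klf11 in iWAT at 12 weeks (0.53). With the higher mouse numbers alone these were Klf2 in obese eWAT (-0.054), Klf9 in obese eWAT (0.13), Klf10 in obese eWAT (0.18), Klf5 in eWAT at 2 weeks (-0.22), Klf9 in eWAT at 2 weeks (-0.058), Klf4 in eWAT at 6 weeks (-0.033), Klf15 in eWAT at 6 weeks (0.23), Klf14 in eWAT at 12 weeks (0.44), Klf5 in iWAT at 2 weeks (-0.18), Klf11 in iWAT at 2 weeks (-0.027), Klf15 in iWAT at 2 weeks (0.53), Klf10 in iWAT at 6 weeks (0.020), Klf9 in iWAT at 12 weeks (-0.11) and Klf15 in iWAT at 12 weeks (-0.36). Without lean mice 5 and 6 of the obese time these were Klf2 in obese eWAT (-0.046), Klf9 in obese eWAT (0.0051), Klf10 in obese eWAT (0.18) and Klf11 in obese eWAT (-0.11). With no filter on low counts these were Klf4 in obese eWAT (0.015) and Klf9 in obese eWAT (0.013). With the replicate block these were Klf4 in obese eWAT (0.023) and Klf9 in obese eWAT (0.034). With runs of neighbouring mouse numbers as a random block these were Klf4 in obese eWAT (0.0096) and Klf9 in obese eWAT (0.0018). With other tissues as terms these were Klf4 in obese eWAT (0.034) and Klf10 in iWAT at 6 weeks (0.11). With the mouse series as a term these were Klf9 in obese eWAT (0.013). In DESeq2 these were Klf3 in eWAT at 2 weeks (-0.0069). With DESeq2 size factors these were Klf3 in eWAT at 2 weeks (-0.0075). With the compared groups fitted alone these were Klf3 in eWAT at 2 weeks (-0.018). With 1 library left out, the ranges over all such fits were Klf2 in obese eWAT (-0.063 to 0.14), Klf4 in obese eWAT (-0.091 to 0.12), Klf9 in obese eWAT (-0.073 to 0.080), Klf3 in eWAT at 2 weeks (-0.045 to 0.061), Klf5 in eWAT at 2 weeks (-0.18 to 0.56), Klf15 in eWAT at 6 weeks (-0.27 to 0.0052), Klf10 in eWAT at 12 weeks (-0.17 to 0.039), Klf11 in eWAT at 12 weeks (-0.22 to 0.059), Klf14 in eWAT at 12 weeks (-0.28 to 0.074), Klf15 in eWAT at 12 weeks (-0.20 to 0.037), Klf5 in iWAT at 2 weeks (-0.063 to 0.31), Klf15 in iWAT at 2 weeks (-0.23 to 0.019), Klf5 in iWAT at 6 weeks (-0.14 to 0.40), Klf10 in iWAT at 6 weeks (-0.097 to 0.026) and Klf15 in iWAT at 12 weeks (-0.0010 to 0.20).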
